A study of Danio rerio with 6 samples.

Results

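The Wnt pathway genes of zebrafish embryos were followed on 44 probe sets that stand for 37 genes, out of 15502 probe sets and 8793 genes measured. Members were taken by name: every probe set with a single gene symbol that begins with wnt, fzd, axin, dkk, sfrp, frzb, lef1, tcf7, ctnnb, lrp5, lrp6, dvl, apc or vangl. For lrp5, lrp6 and apc no probe set carried such a symbol. RNA came from pools of dechorionated whole embryos of the wild type AB strain at 36 h post fertilisation. From 24 to 36 h one group of embryos was kept in 5 µM 11,12-EET, an epoxide made from arachidonic acid by cytochrome P450 enzymes, and the control group in its solvent DMSO. Each group had 3 arrays, which the labels call biological replicates, and they give 25 embryos per treatment group. The pools hold every tissue of the embryo, so fewer cells of a type and less RNA per cell cannot be told apart.

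Wnt proteins are secreted signals that bind Frizzled receptors together with the co-receptors Lrp5 and Lrp6. Without a signal, a complex that holds Axin and Apc marks beta-catenin for destruction. With it, Dishevelled holds that complex back, and beta-catenin enters the nucleus and acts with Tcf and Lef factors on target genes. In the zebrafish embryo the pathway patterns the neural tube and the tail, guides fin and neural crest development, and acts on blood stem cells. Other Wnt signals run through planar cell polarity proteins such as Vangl and steer cell movement.

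The arrays were alike in scale, with median levels of 4.81 to 4.82 on the log2 scale. A probe set is called brighter where its mean level over the 6 arrays is at or above the median of 4.81, as in 7751. In these, the main component of variation (44.0% of the variance) set the replicate 3 array of each treatment against the other 4. The next component (19.6%) set the treatments apart, with the DMSO arrays at 5.51 to 8.67 and the EET arrays at -9.31 to -4.60. That separation was not tested. Of 44 genes listed as markers of 12 tissues and regions, 31 were measured, 27 of them among the brighter probe sets. Muscle, nervous system, red cell, epidermal, notochord and pigment genes were all among these, and tail bud genes reached 5.31 at most. Of the 4 genes listed for liver and yolk syncytium together, 3 (apoa2, tfa and apoea) were among them. The other, fabp10a, was dim at a mean of 2.75. The summed markers of 2 of the 12 lists did not overlap between the groups. Among single brighter probe sets the groups did not overlap on 13%, and no such share was computed for sums. For epidermal genes (krt4, krt5 and krt91) the log2 sum ranged from 13.13 to 13.18 in the DMSO arrays and from 12.99 to 13.09 in the EET arrays. None of these 3 genes separated the groups by itself. For the fin fold genes and1 and and2 the sum ranged from 9.93 to 10.10 in DMSO and from 8.90 to 9.21 in EET. Both fin fold genes separated the groups, and 1 of them had a limma adjusted p under 0.05 in the fit to brighter probe sets. As a control of RNA quality, actin probe sets at the 3′ end exceeded those at the 5′ end by 1.74 to 2.01 in the DMSO arrays and by 2.14 to 2.30 in the EET arrays. For GAPDH the ranges overlapped, 0.88 to 1.02 and 0.94 to 1.27. The part of these in the differences below was not tested.

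The comparison of EET with DMSO asked whether transcripts of the pathway differed after 12 h of exposure. No Wnt pathway gene passed the test. With limma and Benjamini-Hochberg adjustment over all probe sets, 0 of 44 members reached an adjusted p under 0.05, where 0% of all 15502 probe sets reached it. Of the 26 brighter members 0 reached it in the fit to brighter probe sets, where 0.0774% of 7751 did. With the replicate number as a block 12 brighter probe sets were called, 0 of them members. The smallest adjusted p of a member was 0.930 over all probe sets and 0.675 among the brighter ones. At an unadjusted limma p under 0.05 there was 1 member of 44 (2.27%) against 5.27% of all probe sets, and 3 of 26 brighter members (fzd7b on both probe sets and fzd9b on 1) against 6.66% of brighter ones.

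By group means, 27 member probe sets were higher and 17 lower in EET. Their median log2 difference was 0.04, beside 0.00 over all probe sets. In 5 members every EET array lay above every DMSO array, a background of 5.81%, and in 2 every EET array lay below, a background of 5.91%. Together these 7 made up 15.9% of the members, against 11.7% of all probe sets. Of the 26 brighter members 6 were among them (both probe sets of fzd7b, 1 each of fzd8a and sfrp5, sfrp1a and lef1), a share of 23.1% against 13% of all brighter probe sets. With only the brightest probe set of each gene, 5 of 37 member genes (13.5%) separated the groups, against 12.1% of all 8793 genes. The differences between these shares were not tested.

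How far the data bound a change depended on the level. For the 26 brighter members the 95% interval of the difference stayed within a 2-fold difference in either direction for all 26, as for 99.2% of brighter probe sets. It stayed within a 1.5-fold difference for 24 of them, where the background was 88.6%. The exceptions were the dimmer probe sets of fzd7b and fzd9b, whose intervals reached 1.55-fold and 1.57-fold higher. For the 18 dimmer members the interval stayed within a 2-fold difference for 4, where 40.3% of dimmer probe sets did. Between replicates the brighter members had a median SD of 0.14, and the dimmer ones of 0.63. These intervals are limma's for single probe sets, not adjusted for their number.

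**Figure D1:**
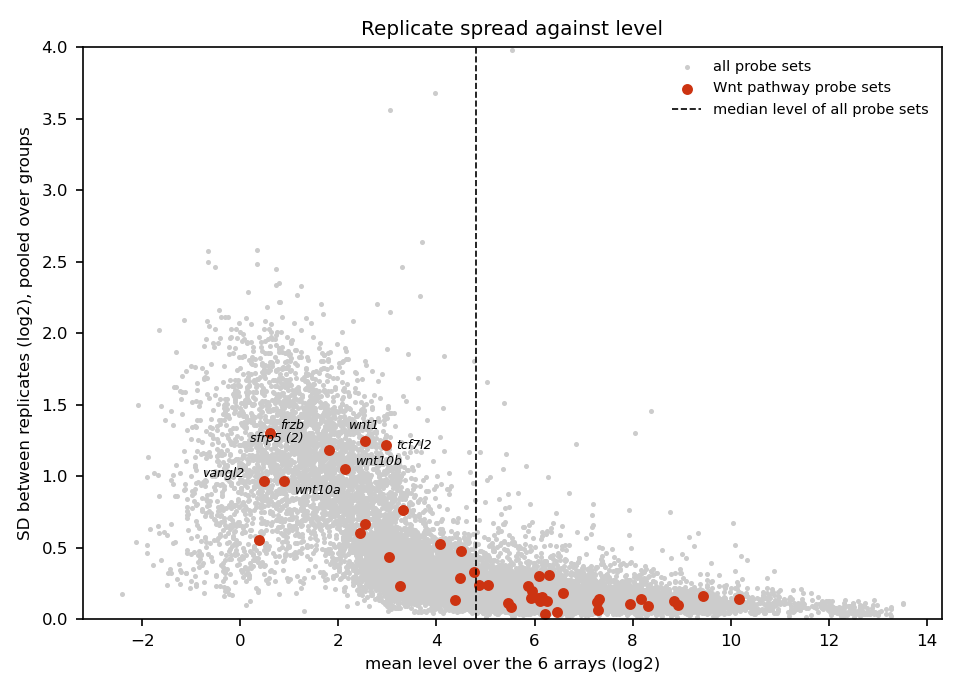
SD between replicates (log2, pooled over both groups) against the mean level over the 6 arrays (log2) for all 15502 probe sets in grey and the 44 Wnt pathway probe sets in red, with the median level of all probe sets as a dashed line. The members left of the line, among them frzb, wnt1, tcf7l2 and wnt10b, scatter up to an SD above 1, while the 26 members right of it have a median of 0.14. A number in brackets marks a gene's probe sets from the brighter to the dimmer.

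**Figure D2:**
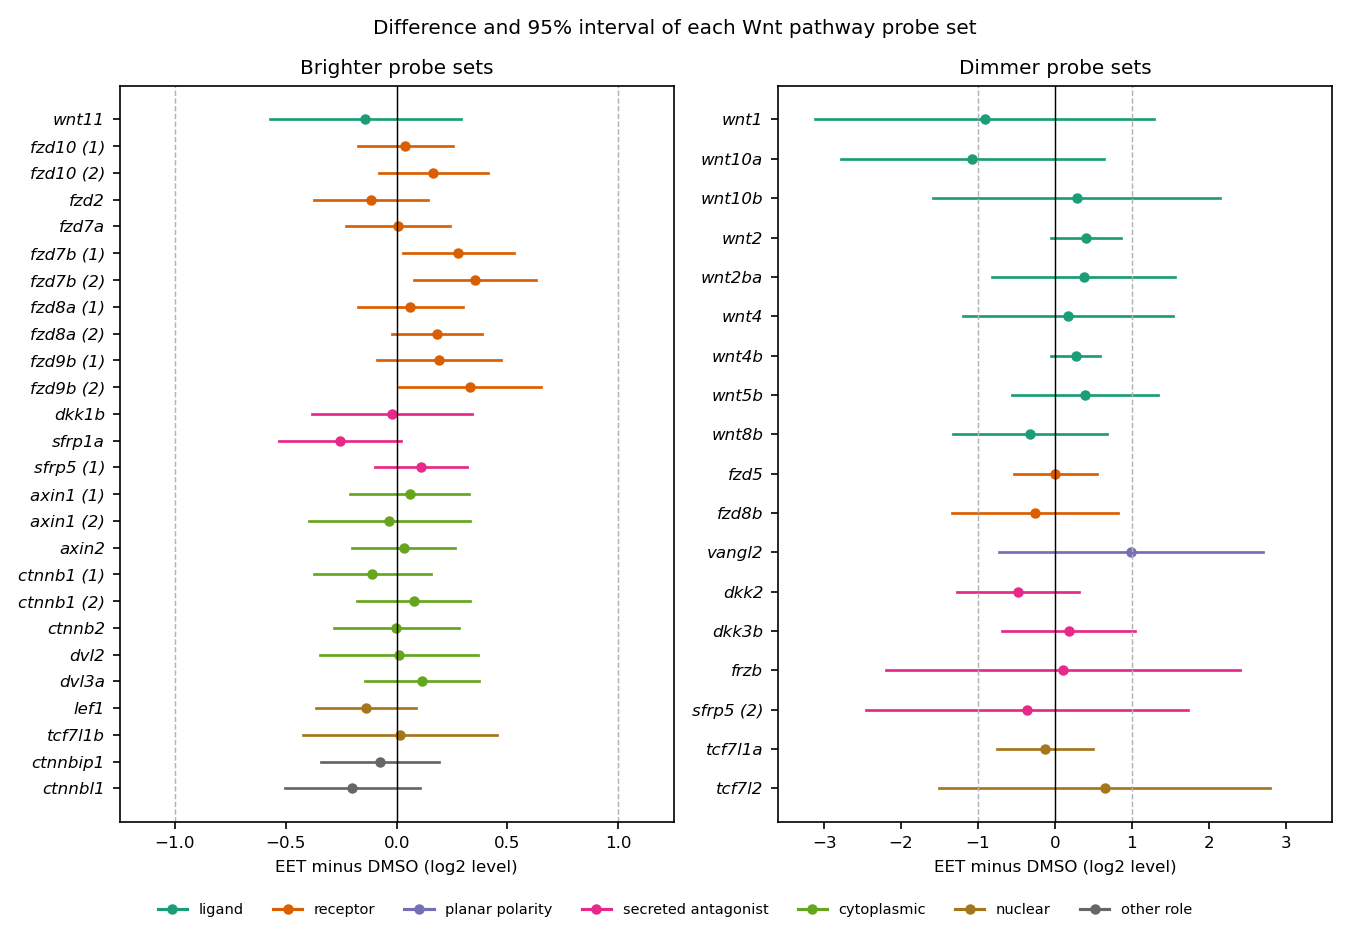
EET minus DMSO difference in log2 level with its 95% interval for each of the 44 probe sets, coloured by role, with brighter probe sets on the left and dimmer ones on the right on a wider axis. Dashed lines mark a 2-fold difference. All 26 brighter intervals lie between the dashed lines, and 14 of the 18 dimmer ones cross them.

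Among the ligands, 10 Wnt genes were measured by 1 probe set each, and 9 of these were dim. By group mean 6 were higher and 4 lower in EET, with differences from -1.07 to 0.41. The 1 brighter ligand was wnt11, a ligand of the branch that steers cell movement. In the DMSO arrays wnt11 stood at 6.12, 6.37 and 5.97, and in the EET arrays at 6.41, 5.97 and 5.66. The groups overlapped, and the difference was -0.14 ± 0.19 (SE; limma adjusted p = 0.923 among the brighter probe sets). Its 95% interval of -0.57 to 0.29 corresponds to 0.673-fold to 1.22-fold.

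The dim ligand wnt2 was the 1 ligand whose groups did not overlap. It stood at 3.07, 2.78 and 3.30 in DMSO and at 3.68, 3.35 and 3.34 in EET. The lowest EET array lay 0.05 above the highest DMSO array, and the difference was 0.41 ± 0.18 (limma adjusted p = 0.930). In the pair of replicate 3 arrays the wnt2 difference was 0.05, and without both of them 0.59. For wnt4b, one of a pair of wnt4 genes, the values were 4.08, 4.42 and 4.21 in DMSO and 4.59, 4.42 and 4.52 in EET, a difference of 0.27 ± 0.13 with overlap at replicate 2. The other gene of that pair, wnt4, differed by 0.17 ± 0.54.

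The remaining ligands were measured too loosely for a direction. The gene wnt5b, a ligand of the cell movement branch, differed by 0.39 ± 0.38, and wnt2ba by 0.37 ± 0.47. The genes wnt1 and wnt10b, which pattern the boundary of midbrain and hindbrain, are next to each other among protein coding genes of the RefSeq gene table. Their differences had opposite signs, -0.91 ± 0.88 for wnt1 and 0.28 ± 0.74 for wnt10b. In EET the wnt1 probe set ran from 0.38 in replicate 1 to 3.40 in replicate 2, a range that takes in 2 of the 3 DMSO arrays. For wnt10a the difference was -1.07 ± 0.68, and for wnt8b, a ligand of the forebrain and midbrain, -0.33 ± 0.40. Both probe sets gave values below 0 in EET replicate 1, which are not known to be above background.

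Among the receptors, 8 Frizzled genes were measured by 12 probe sets, of which 10 were higher and 2 lower in EET by group mean. Of the 10 brighter probe sets, which stand for 6 genes, 9 lay on the higher and 1 on the lower side, their median being 0.17 beside 0.00 over all brighter probe sets. Leaving out 1 array at a time kept 8 or 9 of 10 higher, with medians from 0.12 to 0.19. Between arrays of the same number, 8 of 10 were higher for replicate 1, all 10 for replicate 2 and 6 for replicate 3. For the 3 of these 10 whose groups did not overlap, neither comparison could give another sign. None of the 12 passed the test, and probe sets of 1 gene are not independent. In these counts and medians fzd7b, fzd8a, fzd9b and fzd10 each enter with 2 probe sets. On the brightest probe set of each of the 6 genes, the difference was 0.28 for fzd7b, 0.19 for fzd9b and 0.06 for fzd8a. It was 0.04 for fzd10, 0.01 for fzd7a and -0.12 for fzd2.

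The gene fzd7b, a Frizzled receptor with a close relative fzd7a, had the smallest p of the 44 member probe sets. Its brighter probe set stood at 7.20, 7.14 and 7.05 in DMSO and at 7.58, 7.34 and 7.30 in EET. Its dimmer probe set stood at 5.98, 5.75 and 5.95 in DMSO and at 6.05, 6.32 and 6.37 in EET. On both probe sets all 3 EET arrays lay above all 3 DMSO arrays, by gaps of 0.10 and 0.07. The differences were 0.28 ± 0.11 and 0.35 ± 0.12, which is 1.21-fold and 1.28-fold (limma adjusted p = 0.733 and 0.675 among the brighter probe sets, and 0.930 for both over all). With 1 array left out they stayed between 0.19 and 0.33 and between 0.28 and 0.45. In the replicate 3 pair they were 0.25 and 0.42, and without both replicate 3 arrays 0.29 and 0.32.

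The relative fzd7a stood at 9.02, 8.82 and 8.91 in DMSO and at 9.01, 8.92 and 8.83 in EET. Its groups overlapped throughout, with a difference of 0.01 ± 0.10 and a 95% interval of -0.23 to 0.24. The interval of fzd7b was 0.03 to 0.53 on its brighter probe set and overlapped that of fzd7a. Whether the genes of this pair differ in response was not tested.

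For fzd9b, another Frizzled receptor, 1 probe set stood at 6.27, 6.07 and 5.85 in DMSO and at 6.32, 6.26 and 6.18 in EET. The other stood at 6.05, 5.70 and 5.61 in DMSO and at 6.07, 6.29 and 5.99 in EET. DMSO replicate 1 lay within the EET range on both. The differences were 0.19 ± 0.12 and 0.33 ± 0.14 (limma adjusted p = 0.827 and 0.739 among the brighter probe sets).

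For fzd8a, a receptor gene with a relative fzd8b, the annotation ties both probe sets to the same transcript record. Both were higher in EET by group mean, but only 1 of them separated the groups. The brighter stood at 7.86, 7.98 and 7.93 in DMSO and at 8.05, 8.07 and 7.83 in EET, with overlap and a difference of 0.06 ± 0.10. The dimmer stood at 6.15, 6.13 and 6.07 in DMSO and at 6.31, 6.27 and 6.32 in EET. On this one the groups did not overlap, at a difference of 0.18 ± 0.09 (limma adjusted p = 0.762 among the brighter probe sets). Its name carries the array maker's mark for probes that can match more than 1 transcript, so which transcripts it measures is uncertain. The same mark is on the dimmer probe set of fzd10, which differed by 0.17 ± 0.11, while the unmarked one differed by 0.04 ± 0.09.

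The 1 brighter receptor that was lower was fzd2, at 6.29, 5.97 and 6.26 in DMSO and 6.10, 6.03 and 6.04 in EET, a difference of -0.12 ± 0.11. The EET values lie within the DMSO range. The dim receptors fzd5 and fzd8b differed by 0.01 ± 0.22 and -0.26 ± 0.43.

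**Figure D3:**
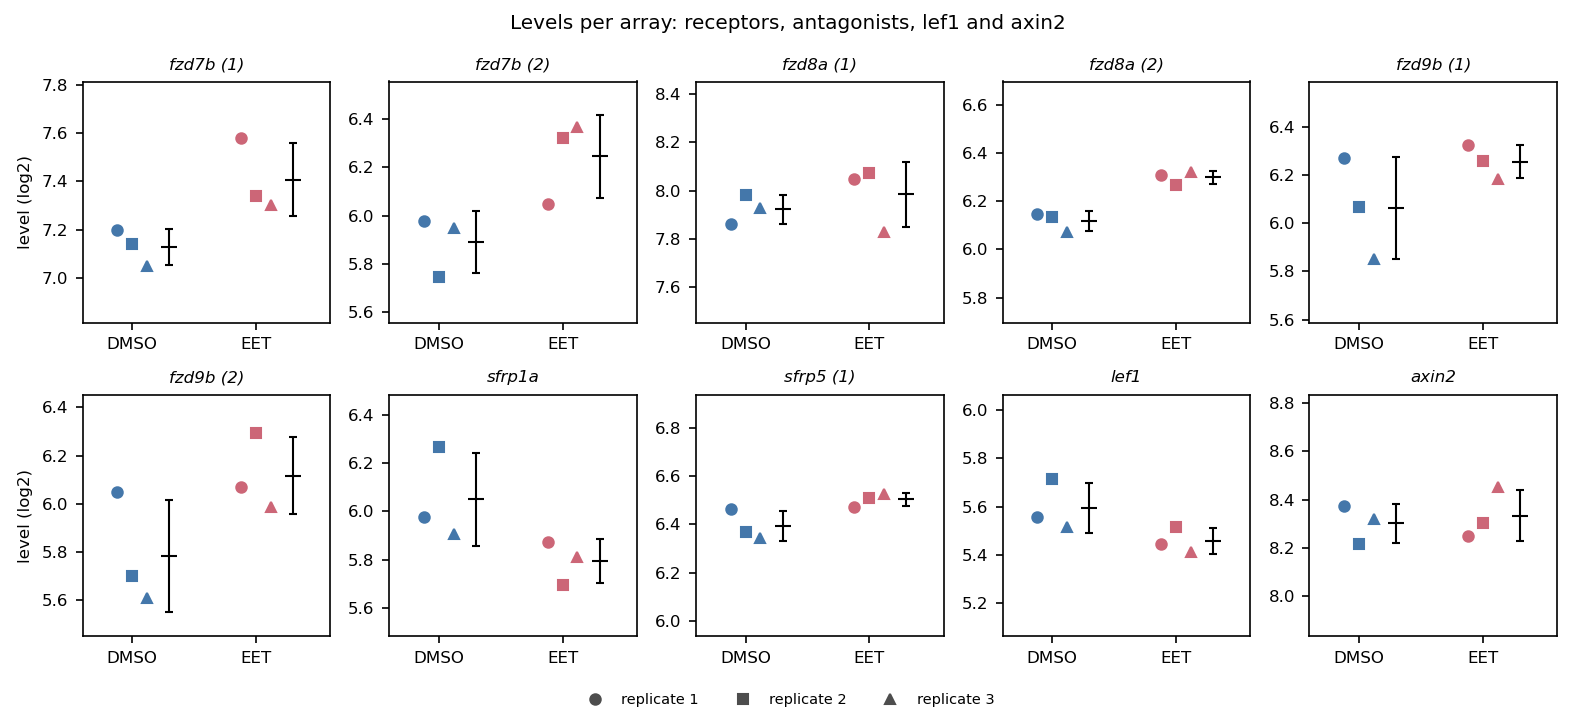
Level on each array (log2) of the brighter probe sets of fzd7b, fzd8a, fzd9b, sfrp1a, sfrp5, lef1 and axin2 in DMSO (blue) and EET (red), with the replicate number as the symbol and the mean ± SD (n = 3) in black; every panel spans the same range of 1 log2 unit. The EET points sit above all DMSO points on both fzd7b panels and below them for sfrp1a, while those of axin2 overlap.

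Among the secreted antagonists, sfrp1a and sfrp5 encode proteins that bind Wnt ligands outside the cell. The level of sfrp1a was 5.98, 6.27 and 5.90 in DMSO and 5.88, 5.70 and 5.81 in EET. Every EET array lay below every DMSO array, by a gap of 0.03, and the difference was -0.26 ± 0.12 (limma adjusted p = 0.743 among the brighter probe sets). Much of it came with DMSO replicate 2: without that array the difference was -0.15.

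For sfrp5 the brighter probe set lay on the other side, at 6.46, 6.37 and 6.34 in DMSO and 6.47, 6.51 and 6.53 in EET. The gap between its groups was 0.01 and the difference 0.11 ± 0.09 (limma adjusted p = 0.871). The dim probe set of sfrp5 stood at 3.15, 1.88 and 0.95 in DMSO and 0.93, 3.08 and 0.87 in EET. Its groups overlapped, and the difference of -0.37 ± 0.83 gave no direction. The frzb gene, of the same family, was among the dimmest members, at -0.24, -0.59 and 2.50 in DMSO and -0.07, 0.68 and 1.37 in EET. Its high values were those of replicate 3.

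The gene dkk1b encodes a secreted inhibitor that binds the co-receptors Lrp5 and Lrp6 and is known for its part in head formation, while dkk3b encodes a divergent member of the Dkk family. The level of dkk1b was 5.09, 5.03 and 4.52 in DMSO and 4.90, 4.96 and 4.71 in EET, a difference of -0.02 ± 0.16. The dkk3b probe set stood at 4.78, 4.57 and 3.92 in DMSO and 4.97, 4.80 and 4.03 in EET, and dkk2 at 3.41, 3.54 and 2.87 in DMSO and 2.93, 3.22 and 2.24 in EET. In all 3 Dkk genes both replicate 3 arrays were lower than the other 4. Their mean lay below the mean of the other 4 by 0.38, 0.80 and 0.72 for dkk1b, dkk3b and dkk2.

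All 8 probe sets of the cytoplasmic components, for 6 genes, were among the brighter ones, and the 95% interval of each stayed within a 1.5-fold difference. Their differences ran from -0.11 to 0.12, and none of the 8 separated the groups. The beta-catenin gene ctnnb1 stood at 10.25, 10.25 and 10.19 in DMSO and 10.34, 10.06 and 9.96 in EET on its brighter probe set. Its other probe set stood at 8.94, 8.75 and 8.71 in DMSO and 8.73, 8.91 and 8.99 in EET. The groups overlapped on both, and the differences, -0.11 ± 0.12 and 0.08 ± 0.11, had opposite signs. For ctnnb2, the second beta-catenin gene of the fish, the difference was 0.00 ± 0.12 with a 95% interval of -0.28 to 0.28.

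The gene axin2 is both an inhibitor of the pathway and a target that beta-catenin switches on, and is often used as its readout. It stood at 8.37, 8.21 and 8.32 in DMSO and 8.25, 8.30 and 8.45 in EET. The groups overlapped, with a difference of 0.03 ± 0.10 (limma adjusted p = 0.976 in the fit to brighter probe sets). The 95% interval of -0.20 to 0.26 corresponds to 0.870-fold to 1.2-fold. The related axin1, a scaffold of the destruction complex, differed by 0.06 ± 0.12 and -0.03 ± 0.16 on its probe sets. The Dishevelled genes dvl2 and dvl3a differed by 0.01 ± 0.16 and 0.12 ± 0.11.

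Of the nuclear factors, lef1, which acts with beta-catenin on target genes, stood at 5.56, 5.71 and 5.52 in DMSO and 5.45, 5.52 and 5.41 in EET. The groups did not overlap, but only by a gap of 0.00013 between DMSO replicate 3 and EET replicate 2. The difference was -0.14 ± 0.10 (limma adjusted p = 0.851 in the fit to brighter probe sets). The related tcf7l1a and tcf7l1b encode factors that mostly repress targets, and differed by -0.13 ± 0.25 and 0.01 ± 0.19. The level of tcf7l1b was 6.28, 6.45 and 6.11 in DMSO and 6.69, 6.31 and 5.88 in EET, with the replicate 3 array lowest in each group.

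For tcf7l2 the replicate 3 arrays lay farther from the others than EET from DMSO. This dim probe set stood at 3.19, 3.50 and 1.23 in DMSO and at 3.91, 4.04 and 1.91 in EET. Both replicate 3 arrays lay below the other 4, and their mean lay 2.09 below the mean of those. The difference of 0.65 ± 0.86 is therefore wide across the groups, but between arrays of the same number it was 0.72, 0.54 and 0.68. With replicate 3 as a batch term its SE was 0.13 and the limma adjusted p 0.709 over all probe sets. The probe sets of dkk2 and dkk3b were dim too, and differed by -0.48 ± 0.32 and 0.18 ± 0.34 (limma adjusted p = 0.932 and 0.969 over all probe sets). With 1 array left out the dkk3b difference ran from -0.08 to 0.46. The dkk2 differences between arrays of the same number were -0.48, -0.32 and -0.63, and those of dkk3b 0.18, 0.23 and 0.12. With the batch term their adjusted p were 0.801 and 0.821. The labels do not say that arrays of the same number share a clutch or a day. Both genes and tcf7l2 were singled out after their values were seen.

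Over the pathway both replicate 3 arrays lay below the other 4 in 6 members (13.6%), where 10.4% of all probe sets did so. They lay above in 1 member, frzb (2.27%), where 10.5% of all probe sets did so. The 6 were the 3 Dkk genes, tcf7l1b, tcf7l2 and ctnnbip1.

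**Figure D4:**
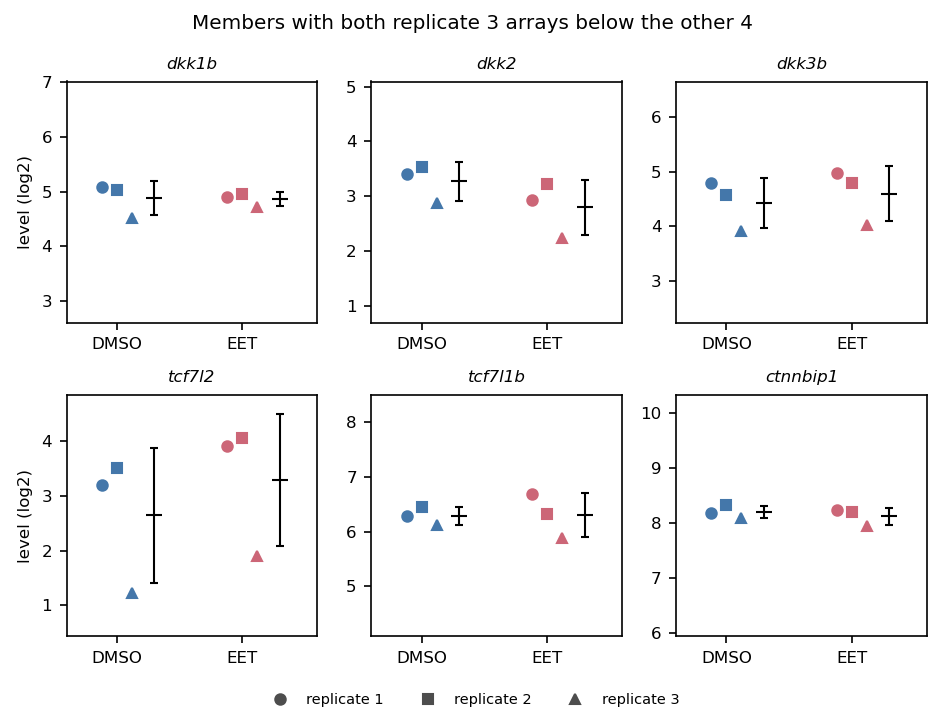
Level on each array (log2) of the 6 Wnt pathway genes whose replicate 3 arrays both lay below the other 4, in DMSO (blue) and EET (red), with the replicate number as the symbol and the mean ± SD (n = 3) in black; every panel spans the same range of log2 units. The triangles of replicate 3 sit lowest in each group. Their mean lies below the mean of the other 4 arrays by 2.09 for tcf7l2 and 0.80 for dkk3b.

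The planar polarity gene vangl2, needed for the cell movements of gastrulation, was too dim to compare. Its values were -0.38, 0.21 and 0.16 in DMSO and 0.25, 0.18 and 2.51 in EET. The difference of 0.99 ± 0.68 rests on EET replicate 3, without which it was 0.22.

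A pair of member genes share the letters ctnnb but do not encode a beta-catenin. The gene ctnnbip1 encodes a protein that keeps beta-catenin from Tcf factors, and stood at 8.18, 8.32 and 8.10 in DMSO and 8.24, 8.19 and 7.94 in EET, a difference of -0.07 ± 0.12. The gene ctnnbl1 encodes a nuclear protein tied to splicing and is no catenin of this pathway. It stood at 6.54, 6.79 and 6.71 in DMSO and 6.24, 6.53 and 6.67 in EET, with overlap and a difference of -0.20 ± 0.13.

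Of 7 genes with several probe sets, 4 had the same sign on both (fzd7b, fzd8a, fzd9b and fzd10) and 3 had opposite signs (axin1, ctnnb1 and sfrp5).

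Other genes of the pathway and its targets, listed with earlier results of these data known, were read beside the members. Of 81 listed symbols of other pathway genes 33 were measured by 41 probe sets, and of 54 listed symbols of targets 39 by 46. The listed symbols are not all distinct genes: rnf43 and znrf3 stand on both lists, and some genes are listed under an alternative name too. The first list held 24 higher and 17 lower probe sets (median 0.04), and the target list 27 higher and 19 lower (median 0.03). None of these passed limma's test, over all probe sets or among the brighter ones. At an unadjusted p under 0.05 over all probe sets there were 5 of 87 (5.75%), close to the 5.27% of all probe sets.

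Of the 50 brighter probe sets on these lists, 5 separated the groups (10%), where 13% of all brighter probe sets did so. The gene wls encodes the carrier that brings Wnt ligands to the cell surface. Its probe set that separated the groups differed by 0.15 ± 0.09 and carries the mark for probes that can match more than 1 transcript. On the other wls probe sets the groups overlapped, with differences of 0.11 ± 0.27 and 0.13 ± 0.20. The gene wif1 encodes a secreted inhibitor that binds Wnt ligands and differed by 0.20 ± 0.09. The small GTPase gene rhoaa, of the cell movement branch, differed by -0.34 ± 0.11 (limma adjusted p = 0.659 among the brighter probe sets). Of the targets, en2b, an engrailed gene of the midbrain and hindbrain boundary, differed by 0.38 ± 0.11 (adjusted p = 0.628) and irx3a, an Iroquois gene, by 0.23 ± 0.10 (adjusted p = 0.739).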

How the data were processed

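Per the labels' protocols, biotin-labelled cRNA was made from total RNA of pooled whole embryos by the Affymetrix procedure. The authors' deposited table gives a log value for each probe set on each array, read here as log2. The background correction, summary and scaling are not given in the sources used here. The base was inferred from the values: 18 hybridisation control probe sets rose by 0.87 per doubling of the maker's nominal concentration. A natural log would give 0.69 for a signal proportional to concentration. Whether the unknown background correction alters this slope was not tested. No detection calls were used. By the labels these are biological replicates, with nothing said of separate clutches, so p-values measure the spread between these pools. The precision is limited by 3 arrays per group.

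Of 15617 probe sets 115 controls were left out. Symbols came from the platform annotation (10795 tested probe sets with 1 symbol, 135 with several, 4572 with none), and all 37 member genes had the same symbol in the RefSeq gene table of GRCz12tu. No genome build is named, so no coordinates are given, and no sequences are shown. The test was limma (version 3.58.1, R 4.3.3; lmFit and eBayes, 2-sided, no covariates), fitted on all 15502 probe sets and on the 7751 brighter ones, with Benjamini-Hochberg adjustment over each. Standard errors and intervals come from the brighter fit for brighter members and from the full fit for the others. The fit was tested on simulated data with independent arrays, which did not include the shared deviation of the replicate 3 arrays. Levels of different probe sets are not comparable with each other.

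The members and lists were chosen with earlier results of these data known. Values on every array are given for brighter members whose groups did not overlap, the brightest probe set of each role and the 5 brighter members with the smallest p in each direction, with all their probe sets. Members outside this rule (axin2, wnt2, wnt4b, the Dkk genes, frzb, tcf7l2) were chosen after their values were seen. Alternatives were quantile normalisation, median centring, log2(2^value + 32), filters on dim probe sets, trend and robust eBayes, array weights, a block for the replicate number, a batch term for replicate 3, both replicate 3 arrays or any single array left out, and the mean of a gene's probe sets.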

Additional observations from a re-analysis of the deposited data

How the results depend on the processing

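No Wnt pathway member, and no gene of the 2 accompanying lists, was called in any alternative, with a smallest member adjusted p of 0.689 over all probe sets and 0.233 among the brighter ones (fzd7b with array weights). Of the 44 member differences, 23 kept their sign in each of the alternatives run for them over all probe sets (14 higher, 9 lower). Among these 23 were both probe sets of fzd7b and those of fzd8a and fzd9b, sfrp1a, wnt2, dkk2 and lef1. On both fzd7b probe sets, the dimmer one of fzd8a, sfrp1a, wnt2 and lef1 the groups did not overlap. For these, leaving arrays out could not change the sign, so their kept sign in those settings adds nothing. The alternatives were 15 for 35 members and 14 for the 9 that the filter on the dimmest probe sets left out. In all, 61 of 651 values changed sign, and 6 moved by more than the replicate SD. The 651 include settings that leave each difference as it is and alter only its error or adjustment. These were trend and robust eBayes, the replicate block, the batch term and the filter on the dimmest probe sets. The share of sign changes is therefore lower than among the settings that could change a sign. The members' median difference stayed between 0.00 and 0.07.

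Over all probe sets 0 were called, against 1 after median centring, 1 with array weights, 2 with log2(2^value + 32), 3 with trend and robust, and 6 without probe sets below the median level. Among the brighter probe sets 6 were called, against 10 with trend and robust and 12 each with array weights, the replicate block and replicate 3 as a batch term, and 0 to 6 with 1 array left out; the cause was not tested. The deviations of arrays with the same number had correlations of 0.042, 0.056 and 0.148 over all probe sets and 0.177, 0.239 and 0.554 in the brighter set. There, replicates 1 and 2 each matched the other number more closely than their own, so a pairing by number was not assumed, and the replicate block left fzd7b at an adjusted p of 0.461 on its dimmer probe set. Dim levels limit what 18 of the members can show.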
